A study of Mus musculus with 6 samples.

Results

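Genes that mark monocytes and tissue macrophages were followed through the articular cartilage of young and aged mice. The 10 genes are Lyz2, Ly6c2, Csf1r, Cd68, Adgre1, Mrc1, Cd163, Marco, Vsig4 and Mertk. They were chosen by name from a list of known markers, with earlier results of these data known. Each matched a single row among the 33971 genes of the deposited expression table. The question was how the genes of inflammatory monocytes stood against those of resident macrophages in each library.

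The study sequenced polyadenylated RNA from articular cartilage of wild-type (WT) mice, with 3 libraries at 2 months of age and 3 at 18 months. No treatment was applied to either group, and the labels name tissue, genotype and age only. The methods describe male mice. The methods describe the samples of the study as independent, but the labels do not say whether the libraries of an age came from separate animals. The p-values therefore measure only the spread between these libraries, which may be technical.

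Monocytes leave the bone marrow through the blood, and the inflammatory kind, which carries Ly6C on its surface, enters damaged tissue and can become a macrophage there. Resident macrophages settle in tissues, many of them before birth, and clear dying cells, iron and debris. Both carry the receptor CSF1R, which binds the growth factors CSF1 and IL-34. Osteoclasts, the bone-resorbing cells that lie next to calcified cartilage and in the marrow space, arise from the same lineage and also carry CSF1R and CD68. Healthy articular cartilage has no blood vessels and holds chondrocytes as its main cell type.

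Several libraries went against their labels or stood apart, which touches every value below. The summed level of 17 chondrocyte markers, in FPKM (fragments divided by transcript length and library total, hence a level per length), was 15066 to 18744 in the 2-month libraries but 363 to 1740 in the 18-month libraries, where all 17 were called lower. Of all tested genes 21.3% were called lower. The summed level of 14 neutrophil markers was 42954 to 47879 FPKM at 18 months, whereas it was 8.93, 3731 and 58.8 FPKM in 2-month replicates 1, 2 and 3. Thus 2-month replicate 2 carried far more blood cell RNA than its companions, and the tests of the 10 genes are given with and without it. It was singled out by its blood cell markers. Leaving it out therefore favours larger differences and more calls among blood cell genes, and the results without it are no independent evidence. Xist, the RNA of the inactive X chromosome in female cells, was counted 88239 to 102417 times in each 2-month library and 11 to 30 times at 18 months. Ddx3y, a gene of the Y chromosome, had 0 to 10 counts at 2 months and 4333 to 4839 at 18 months. The 2-month libraries therefore went against the male sex given in the methods, and sex and age cannot be told apart in this design. The libraries held between 48171507 and 59085179 counts. In bulk RNA, fewer cells of a type and less RNA per cell cannot be told apart.

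Lyz2 and Ly6c2 have close relatives whose reads could be misassigned, which is why their coding sequences are shown. Lyz2 encodes the lysozyme of macrophages and other myeloid cells, and Lyz1 the lysozyme of Paneth cells in the gut. Their coding sequences have 444 bases each and differ at 22 of them, an identity of 95.1%. Bases 43 to 132 of the coding sequence, counted from 1 at the start codon, hold 13 of the differences, which are in capitals.
Lyz2: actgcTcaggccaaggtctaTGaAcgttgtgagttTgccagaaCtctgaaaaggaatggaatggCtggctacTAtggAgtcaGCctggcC
Lyz1: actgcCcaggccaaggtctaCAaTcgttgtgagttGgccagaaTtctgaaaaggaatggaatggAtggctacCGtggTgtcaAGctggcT
Of the 1167 windows of 150 bases in the Lyz2 transcript, the length of a read, 0 also occurred in Lyz1.

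Ly6c2 encodes a form of the surface antigen Ly6C of inflammatory monocytes, and Ly6c1 a form also made by endothelial cells. Their coding sequences of 393 bases differ at 9 positions, an identity of 97.7%, and 6 of these lie in the first 90 bases.
Ly6c2: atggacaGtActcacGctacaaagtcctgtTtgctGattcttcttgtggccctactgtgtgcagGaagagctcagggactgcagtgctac
Ly6c1: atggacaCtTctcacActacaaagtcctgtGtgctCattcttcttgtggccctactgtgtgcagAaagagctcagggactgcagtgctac
In the Ly6c2 transcript, 39 of 673 windows of 150 bases (5.80%) also occurred in Ly6c1, so that a part of its reads could be placed on either gene. All 4 coding sequences came from the GENCODE M21 transcripts.

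To see how much of each library these genes took up, their counts were added. Together they made up 0.00569% of the counts in 2-month replicate 1, 0.124% in replicate 2 and 0.0210% in replicate 3. In the 18-month libraries the share was 0.847%, 0.652% and 0.655% in replicates 1, 2 and 3. The 95% Wilson intervals, which cover counting error only, were 0.00548% to 0.00591%, 0.123% to 0.125% and 0.0206% to 0.0214% at 2 months, and the lowest bound at 18 months was 0.650%. Every aged library thus lay above every young one, and the young libraries differed among themselves far beyond their counting error. Lyz2 alone gave 81.8% to 85.7% of these counts at 18 months, and 23.8%, 63.3% and 45.9% in 2-month replicates 1, 2 and 3.

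**Figure D1:**
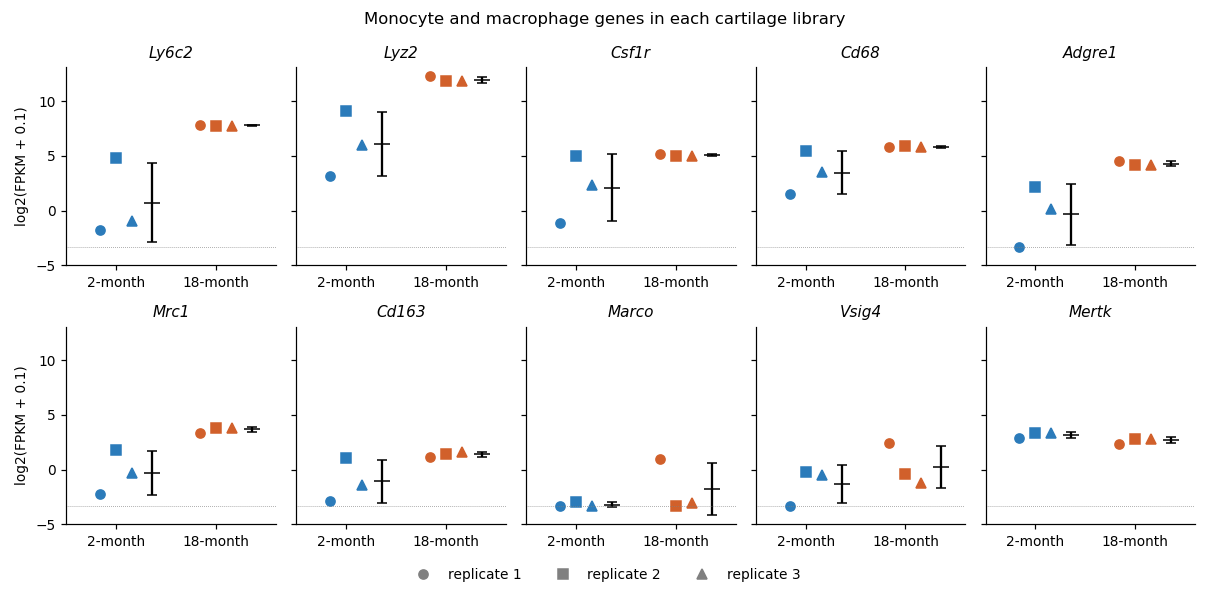
Level of each of the 10 genes in the 6 libraries as log2(FPKM + 0.1), with the 2-month libraries in blue, the 18-month libraries in orange and 1 symbol per replicate number. Black marks are the mean ± SD of the 3 libraries of an age, and the dotted line is a level of 0. The 2-month libraries are spread widely for most genes with replicate 2 highest, while Mertk stays between 5.00 and 10.3 FPKM and Marco stands out in a single 18-month library.

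Across all genes, 3047 of 20397 tested (14.9%) were called higher at 18 months and 4354 (21.3%) lower, a call being an adjusted p below 0.05 with a log2 fold change above 1 or below -1. Of the 10 genes, 9 passed the filter on low counts and Marco did not. Of these 9, 1 (Lyz2) was called higher and 0 lower by edgeR's quasi-likelihood test, and 3 had an unadjusted p below 0.05. DESeq2, run as an alternative, called 3 higher, beside 17% of the 25941 genes to which it gave an adjusted p. The share called higher, 11.1%, was near the background, although 7 of the 9 were higher in every 18-month library than in every 2-month library and 1 was lower. Among all tested genes 33.9% were higher without overlap and 34.6% lower. The median log2 fold change of the 9 was 2.10, beside -0.02 over all tested genes. Without 2-month replicate 2, 7 of 9 were called higher, beside 23.3% of all tested genes, and the median of the 9 was 3.87.

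Lyz2 (ENSMUSG00000069516, chromosome 10, 117277331 to 117282321, minus strand, GRCm38) was the most abundant of the genes. Its level was 9.03, 528 and 62.8 FPKM in 2-month replicates 1, 2 and 3, and 4843, 3562 and 3556 FPKM in 18-month replicates 1, 2 and 3. The ages did not overlap, and 2-month replicate 2 lay far above the other young libraries. Lyz2 rose by 4.31 ± 1.42 (SE, n = 3 per age) on the log2 scale, with an adjusted p of 0.0470 (edgeR, quasi-likelihood test, adjusted by Benjamini-Hochberg over all genes tested). Without 2-month replicate 2 the log2 fold change was 6.68 ± 1.02. The adjusted p was above 0.05 when any one of 4 libraries was left out, 2-month replicate 3 and the 18-month replicates, with values of 0.0951 to 0.129 in the same edgeR fit. Neutrophils also express Lyz2, and their markers moved in the same direction, with S100a8 at 2.35, 833 and 15.5 FPKM in the young libraries and 10127, 12173 and 11933 FPKM in the aged ones. The part of neutrophil RNA in the Lyz2 level was not tested.

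Lyz1, the Paneth cell copy, stayed low. It had 0.3, 0.873 and 4.34 FPKM at 2 months and 7.58, 5.95 and 7.91 FPKM at 18 months, and its log2 fold change of 1.85 ± 0.95 had an adjusted p of 0.147 in edgeR's test. The ratio of Lyz2 to Lyz1 was 30.1, 605 and 14.5 in the young libraries and 639, 598 and 449 in the aged ones. The libraries with much blood cell RNA had the high ratios, with 2-month replicate 2 inside the range of the aged libraries.

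Ly6c2 (ENSMUSG00000022584, chromosome 15, 75108158 to 75111970, minus strand) showed the widest gap between the ages. It had 0.196, 28.5 and 0.427 FPKM in 2-month replicates 1, 2 and 3, from 31, 4578 and 67 counts, and 223, 215 and 216 FPKM at 18 months. The aged libraries were close together and the lowest of them was far above 2-month replicate 2. With all libraries the log2 fold change was 4.50 ± 1.89 and the adjusted p 0.0922 in edgeR's test, so that Ly6c2 was not called. Without 2-month replicate 2 it was called, with a log2 fold change of 9.30 ± 0.42 and an adjusted p of 6.8e-05 in the same edgeR test. The related Ly6c1 rose by 1.3 ± 0.28 on the log2 scale, from 6.74, 12.6 and 11.3 to 25.1, 33.6 and 20.8 FPKM, with an adjusted p of 0.0121 in edgeR's test. Thus the ratio of Ly6c2 to Ly6c1 went from 0.0291, 2.26 and 0.0378 at 2 months to 8.88, 6.40 and 10.4 at 18 months. The tested genes whose pattern over the 6 libraries lay nearest to Ly6c2 were B430306N03Rik, Pglyrp1 and Mirt2. Their root mean square differences were 0.11, 0.14 and 0.16 in centred log2 CPM (counts scaled by library size). The summed level of the neutrophil markers moved in the same direction as Ly6c2. The part of neutrophil RNA in the Ly6c2 level was not tested.

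Csf1r (ENSMUSG00000024621, chromosome 18, 61100598 to 61131134, plus strand) encodes a receptor carried by monocytes, macrophages and osteoclasts. Its level was 0.359, 31.2 and 5.10 FPKM in 2-month replicates 1, 2 and 3 and 35.1, 32.0 and 32.3 FPKM at 18 months. The ages did not overlap, but 2-month replicate 2 reached 94.4% of the mean of the aged libraries. The log2 fold change was 1.43 ± 1.28 with an adjusted p of 0.382 with all libraries and 3.48 ± 1.07 with an adjusted p of 0.0344 without 2-month replicate 2, both in edgeR's test. An exon of Csf1r overlaps Hmgxb3 on the opposite strand over 873 bases. The libraries were strand-specific, but the strand setting of the counting is not given in the sources used here, so reads there may belong to either gene. The nearest patterns to Csf1r were those of Ccm2l, Shtn1 and Sox18, with differences of 0.21, 0.23 and 0.33 in centred log2 CPM. Sox18 is a transcription factor of endothelial cells.

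Cd68 (ENSMUSG00000018774, chromosome 11, 69664213 to 69666153, minus strand) encodes a lysosomal membrane protein of macrophages and osteoclasts. It had 2.75, 42.5 and 11.1 FPKM in 2-month replicates 1, 2 and 3 and 54.2, 59.2 and 55.9 FPKM at 18 months. As for Csf1r, the ages stood apart by little, with 2-month replicate 2 at 75.4% of the aged mean. The log2 fold change was 1.56 ± 0.87 with an adjusted p of 0.177, and 2.91 ± 0.60 with 0.00854 when 2-month replicate 2 was left out (edgeR's test).

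In summed level the osteoclast markers were highest in 2-month replicate 2. Over 10 genes it was 48.5, 2513 and 453 FPKM at 2 months and 1044, 1228 and 1214 FPKM at 18 months. Ctsk, the collagen-cutting protease of osteoclasts, had 32.0, 933 and 211 FPKM at 2 months and 440, 546 and 534 FPKM at 18 months, and Acp5, their acid phosphatase, had 4.18, 993 and 164 against 241, 288 and 287 FPKM. The ages overlapped for both. Of the 10 osteoclast markers 1 was called higher, the integrin Itgb3, which platelets also carry and which was at 30.7 FPKM in 2-month replicate 2 and 63.1 to 81.0 FPKM at 18 months, and it was also 1 without 2-month replicate 2. The endothelial markers had a summed level of 2.52, 55.8 and 8.09 FPKM at 2 months and 46.8, 50.4 and 51.6 FPKM at 18 months. Of 10 such markers 1 was called higher (Vwf, the von Willebrand factor, which megakaryocytes also make) and 9 without 2-month replicate 2. Of all tested genes, 14.9% were called higher with all libraries and 23.3% without 2-month replicate 2. The part of osteoclast or endothelial RNA in the Csf1r and Cd68 levels was not tested.

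Adgre1 (ENSMUSG00000004730, chromosome 17, 57358691 to 57483527, plus strand) encodes F4/80, the surface protein most used to identify mouse macrophages. It had 0 counts in 2-month replicate 1, and 4.32 and 0.990 FPKM in replicates 2 and 3, against 23.6, 17.5 and 17.6 FPKM at 18 months. A count of 0 allows up to 3 counts in that library. The aged libraries were all above 2-month replicate 2, which lay at 22.1% of their mean. The log2 fold change was 3.44 ± 1.59 with an adjusted p of 0.116, and 5.18 ± 1.29 with 0.0167 without 2-month replicate 2 (edgeR's test).

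Mrc1 (ENSMUSG00000026712, chromosome 2, 14229392 to 14332057, plus strand) encodes the mannose receptor CD206, and Cd163 (ENSMUSG00000008845, chromosome 6, 124304656 to 124330527, plus strand) the receptor that takes up hemoglobin bound to haptoglobin. Mrc1 had 0.111, 3.28 and 0.685 FPKM at 2 months and 10.3, 13.8 and 14 FPKM at 18 months. Cd163 had 0.0404, 1.97 and 0.277 FPKM at 2 months and 2.07, 2.61 and 2.98 FPKM at 18 months. Both were higher in every aged library, Mrc1 with a wide gap and Cd163 with hardly any between 2-month replicate 2 and 18-month replicate 1. The log2 fold change of Mrc1 was 3.21 ± 1.10, just short of a call with an adjusted p of 0.0526 in edgeR's test. That of Cd163 was 1.73 ± 1.17 with an adjusted p of 0.256 in the same edgeR test. Without 2-month replicate 2 both were called, Mrc1 at 4.89 ± 0.79 and Cd163 at 3.87 ± 0.77, with adjusted p of 0.00344 and 0.00759 in edgeR's test. The ratio of Mrc1 to Cd163 was 2.76, 1.66 and 2.47 at 2 months and 4.96, 5.30 and 4.72 at 18 months.

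Marco and Vsig4 were driven by single libraries. Marco (ENSMUSG00000026390, chromosome 1, 120474538 to 120505024, minus strand) encodes a scavenger receptor of macrophages of the lung, the splenic marginal zone and other sites. It had 0, 4 and 0 counts in 2-month replicates 1, 2 and 3 and 247, 0 and 4 counts in 18-month replicates 1, 2 and 3. Thus 18-month replicate 1, at 1.9 FPKM, held nearly all of it, and Marco did not pass the filter for testing. Vsig4 (ENSMUSG00000044206, chromosome X, 96247203 to 96293438, minus strand) encodes the complement receptor CRIg of Kupffer cells and other tissue macrophages, among them those that line the joint. Its level was 0, 0.744 and 0.633 FPKM at 2 months and 5.31, 0.669 and 0.324 FPKM at 18 months, and the ages overlapped. Its log2 fold change was 2.10 ± 1.59 with all libraries, with an adjusted p of 0.305 in edgeR's test. Without 2-month replicate 2 it was 2.57 ± 1.80, and without 18-month replicate 1 it was 0.09.

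In 18-month replicate 1, Vsig4 was 10.7 times the mean of 18-month replicates 2 and 3. Among 20 other resident macrophage genes, Cd209f was at 6.22 times, Lyve1 at 2.87 times and Folr2 at 2.45 times that mean; these 3 were named after their values had been seen. Others lay below it, among them Fcna at 0.638 times and Siglec1 at 0.678 times, and the summed level of the 20 genes was at 0.998 times. For the other tested genes of the 10 the same ratio was between 0.719 (Mertk) and 1.36 (Lyz2). The chondrocyte markers of that library were at 4.75 times the mean of the other aged libraries in summed level, 1740 against 369 and 363 FPKM. The part of this difference in the Marco and Vsig4 levels was not tested.

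Mertk (ENSMUSG00000014361, chromosome 2, 128698956 to 128802894, plus strand) encodes a receptor kinase with which phagocytes bind and engulf dying cells. It was the exception in direction, with 7.17, 10.3 and 9.82 FPKM at 2 months and 5.00, 6.97 and 6.96 FPKM at 18 months. Every aged library was below every young one, but the gap between 18-month replicate 2 and 2-month replicate 1 was small. The log2 fold change was -0.60 ± 0.20 with an adjusted p of 0.0515, and -0.52 ± 0.23 with 0.102 without 2-month replicate 2 (edgeR's test), so it was not called. Mertk was well expressed in 2-month replicate 1, where Ptprc, which encodes the CD45 antigen of nearly all nucleated blood cells, was at 0.0333 FPKM. Its ratio to Ptprc was 215 in that library, 1.89 and 26.0 in 2-month replicates 2 and 3, and 0.175, 0.314 and 0.324 at 18 months.

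**Figure D2:**
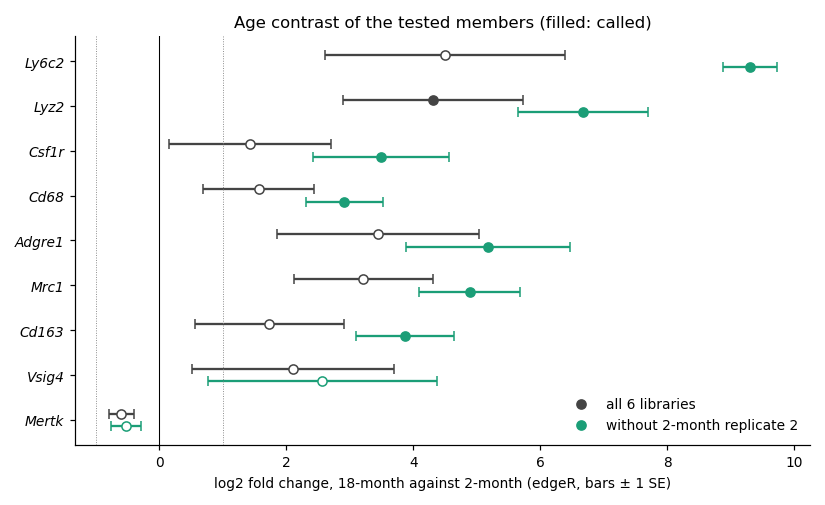
Log2 fold change of the 9 tested genes at 18 months against 2 months from edgeR, with bars of ± 1 SE, for all 6 libraries in grey and without 2-month replicate 2 in green. Filled points were called, open points were not, and dotted lines mark a change of 1 on the log2 scale. With all libraries only Lyz2 is filled, and without 2-month replicate 2 Vsig4 and Mertk are the open points.

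Short stretches before the start of Mrc1, Ly6c2 and Mertk are shown because Mrc1 and Ly6c2 were higher and Mertk lower in the aged libraries. They come from the RefSeq promoter table (GRCm38.p6). Sequences of 8 of the 10 genes were read here. Those of Adgre1 and Csf1r were not read, so both are outside the counts below. The core of the sites bound by PU.1 and other ETS factors, GAGGAA or TTCCTC on the opposite strand, is in capitals. PU.1 is the factor on which the monocyte lineage depends.
Mrc1, chr2:14229164-14229391, plus strand: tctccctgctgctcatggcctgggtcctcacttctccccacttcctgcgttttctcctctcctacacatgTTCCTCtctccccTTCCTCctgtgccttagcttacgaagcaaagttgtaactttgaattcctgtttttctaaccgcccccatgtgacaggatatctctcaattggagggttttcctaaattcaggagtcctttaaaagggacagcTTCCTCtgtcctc
Ly6c2, chr15:75111972-75112221, minus strand: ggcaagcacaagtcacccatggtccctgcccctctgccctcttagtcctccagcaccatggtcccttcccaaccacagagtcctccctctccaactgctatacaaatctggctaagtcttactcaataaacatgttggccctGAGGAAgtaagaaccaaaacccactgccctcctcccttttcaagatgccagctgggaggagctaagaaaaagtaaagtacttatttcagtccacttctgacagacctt
Mertk, chr2:128698665-128698914, plus strand: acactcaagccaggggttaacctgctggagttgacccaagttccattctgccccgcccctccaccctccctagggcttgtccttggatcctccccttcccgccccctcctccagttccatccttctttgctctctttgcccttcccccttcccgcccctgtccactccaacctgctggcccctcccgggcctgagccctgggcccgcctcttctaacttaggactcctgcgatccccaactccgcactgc
The letters occurred on either strand within 250 bases before the start in 5 of the 8 genes (Cd68, Ly6c2, Marco, Mrc1 and Vsig4). Among the promoters of all genes, 7639 of 32851 (23.2%) had them. A gene of the 8 was counted if any of its promoters matched, but the background counted each promoter. These shares, and those of the other letters below, are therefore in unlike units. A match is a description of the letters and not a bound site, and Mertk, Lyz2 and Cd163 had none in this window. The C/EBP letters TTGCNNAA were found in 1 of the 8 (Cd68) and in 9.56% of all promoters, and the TATAAA box in 0 of the 8 and in 12.4% of all.

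The inflammatory monocyte and resident macrophage genes were then set against each other within each library, since FPKM is a level per length. The ratio of Ly6c2 to Csf1r was 0.547, 0.914 and 0.0838 in 2-month replicates 1, 2 and 3 and 6.36, 6.72 and 6.70 in the aged libraries. That of Ly6c2 to Cd68 was 0.0712, 0.671 and 0.0384 at 2 months and 4.12, 3.63 and 3.87 at 18 months. Csf1r and Cd68 were thus above Ly6c2 in every young library and below it in every aged one.

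Against the mannose and hemoglobin receptors, Ly6c2 was already the higher gene in most young libraries. The ratio of Ly6c2 to Mrc1 was 1.76, 8.71 and 0.623 at 2 months and 21.7, 15.5 and 15.4 at 18 months, and that to Cd163 was 4.85, 14.5 and 1.54 against 108, 82.3 and 72.6. The ratio to Adgre1 was 6.61 and 0.431 in 2-month replicates 2 and 3, with no ratio in replicate 1 where Adgre1 had 0 counts, and 9.46, 12.3 and 12.3 at 18 months. For each of these genes every aged library was above every young one with a ratio. The ratio to Mertk changed most, from 0.0273, 2.77 and 0.0435 to 44.5, 30.8 and 31.1. However, Mertk was at 7.17 FPKM in 2-month replicate 1, where Ptprc was at 0.0333 FPKM. The cell source of Mertk was not tested, so this ratio may not set monocytes against macrophages. The ratio to Vsig4 was 38.4 and 0.675 in 2-month replicates 2 and 3 and 42.0, 322 and 668 at 18 months, so that 2-month replicate 2 and 18-month replicate 1 were close. All these ratios share the Ly6c2 value of their library and are not independent of each other.

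**Figure D3:**
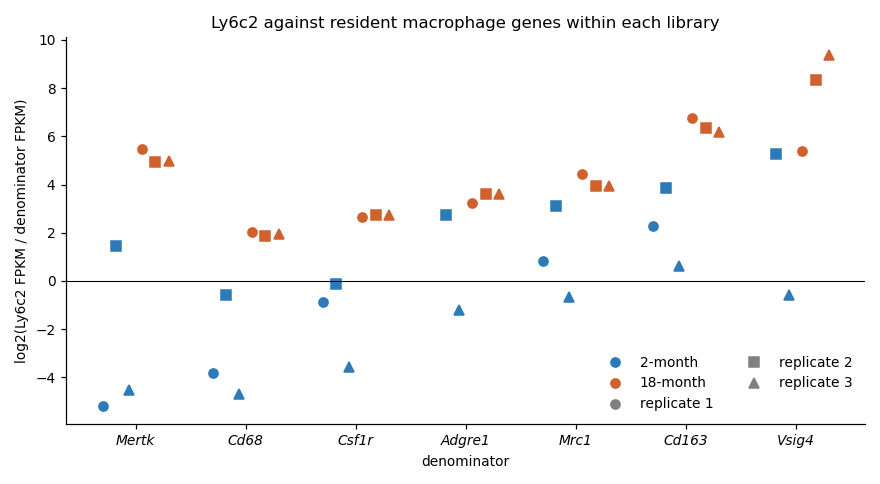
Log2 ratio of Ly6c2 FPKM to the FPKM of 7 genes listed as resident macrophage genes within each library. The 2-month libraries are in blue and the 18-month libraries in orange. A ratio with a level of 0 below the line is left out, as are all ratios to Marco. The cell source of Mertk was not tested. The horizontal line is equal FPKM. For Cd68 and Csf1r the young libraries lie below the line and the aged ones above it.

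To place 2-month replicate 2 between the ages, each gene was given as a percentage of the mean of the 18-month libraries. In that library Ly6c2 was at 13.1% and Lyz2 at 13.3%, beside 8.11% for the neutrophil markers and 16.8% for the pan-leukocyte genes in summed level. Adgre1 was at 22.1%, Mrc1 at 25.8% and Vsig4 at 35.4%. In contrast, Cd68 was at 75.4%, Cd163 at 77.2%, Csf1r at 94.4% and Mertk at 163%, while the endothelial and osteoclast markers were at 113% and 216% in summed level. The order was in part the same in 2-month replicate 3, with 0.196% for Ly6c2, 1.57% for Lyz2, 5.07% for Adgre1 and 5.39% for Mrc1. Csf1r was at 15.4%, Cd68 at 19.7% and Mertk at 156%, but Vsig4, at 30.1%, lay above Csf1r and Cd68. There Cd163 was at 10.9%, beside 0.128% for the neutrophil, 1.46% for the pan-leukocyte, 16.3% for the endothelial and 39.0% for the osteoclast markers. In 2-month replicate 1, Csf1r was at 1.08%, Cd163 at 1.58% and Cd68 at 4.88%, beside 0.467% for the pan-leukocyte, 4.18% for the osteoclast and 5.08% for the endothelial markers. These percentages have no replicate within a library and were not tested.

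**Figure D4:**
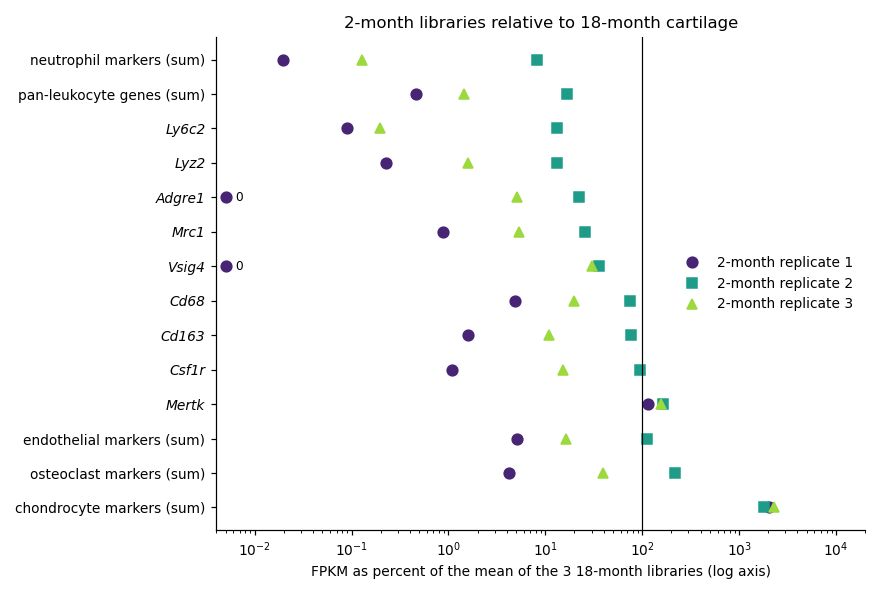
Level of each gene and summed level of each marker list in the 2-month libraries as a percentage of the mean of the 3 18-month libraries, on a log axis with 1 symbol per library. The vertical line is 100%, and genes at 0 are drawn at the left edge and marked 0; Marco is left out. In 2-month replicate 2 the values run from 8.11% for the neutrophil markers to 216% for the osteoclast markers, with the chondrocyte markers beyond.

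Each gene was also compared with Ptprc, as log2 of the ratio of FPKM + 0.1, to set it against the leukocyte RNA of its library. Ly6c2 was higher relative to Ptprc at 18 months by 1.96, and the groups did not overlap, with means of 1.22 ± 1.12 and 3.18 ± 0.20 (SD, n = 3 per age). Relative to Ptprc, Csf1r had a lower mean at 18 months by a difference of -2.11, Cd68 of -2.74, Cd163 of -2.63 and Mertk of -5.60, and these 4 did not overlap between the ages. Ptprc itself was at 0.0333 to 5.45 FPKM at 2 months and 21.4 to 28.6 FPKM at 18 months. A gene that rose less than Ptprc, or did not rise, can therefore be lower relative to it without being specific to macrophages. The share of all genes without overlap relative to Ptprc was not computed. The difference for Mrc1 was -1.14 and for Adgre1 -0.45, and both overlapped. The values for Marco and Vsig4, -3.66 and -3.47, rest on the pseudocount, since both had 0 counts in 2-month replicate 1 and Marco at most 4 at 2 months. The smallest p that an exact two-sided permutation test of 3 against 3 libraries can give is 0.1, which was reached by Lyz2, Csf1r, Cd68, Cd163, Ly6c2 and Mertk, and after Benjamini-Hochberg adjustment over the 10 genes it was 0.167. No difference could pass 0.05 in this permutation test. When 2-month replicate 2 was left out the difference was 2.54 for Ly6c2, -2.14 for Csf1r, -3.25 for Cd68, -3.06 for Cd163 and -6.99 for Mertk. The sizes of the differences relative to Ptprc depend on the pseudocount, since Ptprc was at 0.0333 and 0.378 FPKM in 2-month replicates 1 and 3. With pseudocounts of 1 and 0.01, Ly6c2 was at 2.32 and 1.59, Csf1r at -1.17 and -2.64, and Cd68 at -1.38 and -3.36. Mertk was at -4.04 and -6.25, and Cd163 moved less, at -2.41 and -2.68. The difference for Lyz2 was 0.79, and 2.25 and 0.15 with these pseudocounts. Without a pseudocount, the ratio of Lyz2 to Ptprc was 271, 97.0 and 166 at 2 months and 169, 160 and 166 at 18 months, and the ages overlapped.

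The genes around CSF1R were described from a list of 14, of which 13 were tested. Of these, 3 were called higher and 0 lower, with a median log2 fold change of 1.43, and 8 were called higher without 2-month replicate 2. The shares were 23.1% beside 14.9% of all tested genes and 61.5% beside 23.3%. The ligands differed from each other. Il34, which encodes a ligand made outside the blood, rose by 1.22 ± 0.17 on the log2 scale, from 1.95, 2.34 and 1.81 to 4.97, 4.76 and 5.25 FPKM, with an adjusted p of 0.00315 in edgeR's test. Csf1, the other ligand, had 7.42, 12.2 and 7.81 FPKM at 2 months and 10.3, 9.62 and 9.76 FPKM at 18 months, with a log2 fold change of 0.05 ± 0.17 and an adjusted p of 0.815 in edgeR's test. The ages overlapped for Csf1, and 2-month replicate 2 was its highest library.

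Among the receptors and adaptors, Csf2ra, a subunit of the receptor for GM-CSF, rose by 2.14 ± 0.28 on the log2 scale (adjusted p 0.00266, edgeR's test). Its partner Csf2rb, listed at 0 in 2-month replicate 1, had 4.56 and 0.424 FPKM in replicates 2 and 3 and 23.6 to 26.0 FPKM at 18 months, with a log2 fold change of 3.88 ± 1.86 that was not called. Tyrobp, an adaptor of activating receptors in myeloid cells, had 0.436, 97.9 and 14.6 FPKM at 2 months and 517 to 570 FPKM at 18 months, at 3.86 ± 1.57. Both were called without 2-month replicate 2. Csf2 was not analysed here.

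Of the transcription factors, Cebpa, which directs progenitors to the myeloid line, rose by 3.04 ± 0.49 on the log2 scale, from 1.55, 5.15 and 1.65 to 23.0, 25.1 and 22.8 FPKM (adjusted p 0.00465, edgeR's test). Spi1, which encodes PU.1, and Irf8 were higher in every aged library at 3.61 ± 1.5 and 2.98 ± 1.52 and were called without 2-month replicate 2 but not with all libraries. Other factors did not show this pattern. Maf had a log2 fold change of 0.47 ± 0.35, Klf4 of -0.54 ± 0.23 and Cebpb of 0.80 ± 0.58, and the ages overlapped for all 3. The ratio of Csf1r to Spi1, its activator, was 4.22, 2.29 and 3.11 at 2 months and 0.530, 0.528 and 0.519 at 18 months.

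Wider lists of monocyte genes were read from the same edgeR fit. Of 15 inflammatory monocyte genes, 1 was called higher (Ccl9, a chemokine named after its values had been seen) and 1 lower, with a median log2 fold change of 3.85. The share called higher was 6.67%, beside 14.9% of all tested genes, and 66.7%, beside 23.3%, without 2-month replicate 2. DESeq2 called 9 of the 15 higher with all libraries, beside 17% of all its genes. Chil3, a chitinase-like secreted protein, had 0.451, 195 and 3.67 FPKM at 2 months and 1840, 2239 and 2168 FPKM at 18 months. Plac8 had 0.103, 39.5 and 0.595 against 305, 317 and 313 FPKM. In 2-month replicate 2 they were at 9.35% and 12.7% of the aged mean, beside 8.11% for the summed neutrophil markers. The part of neutrophil RNA in these levels was not tested. Ifitm6, an interferon-induced membrane protein, had a log2 fold change of 5.45 ± 2.16, and S100a4, a calcium-binding protein, 0.999 ± 0.228, and neither was called. Thbs1, a matrix protein also made by chondrocytes and other cells, was the gene called lower. It fell by 2.18 on the log2 scale (adjusted p 0.00136, edgeR's test), from 278 to 352 FPKM to 67.7 to 74.6 FPKM in the aged libraries. F13a1, Vcan and Cd14, named after their values had been seen, had log2 fold changes of -0.45 ± 0.28, -0.54 ± 0.32 and -0.26 ± 0.40. None of them was called, and the ages overlapped for each. Of the 15 genes 11 were higher in every aged library, beside 33.9% of all tested genes.

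Of 10 genes of nonclassical monocytes, which patrol vessel walls, 1 was called higher, Fabp4, a fatty acid binding protein also made by fat and endothelial cells, at 2.84 ± 0.37 on the log2 scale. Cx3cr1, the fractalkine receptor of these cells, had 0.169, 2.57 and 0.378 FPKM at 2 months and 8.54, 5.23 and 5.16 FPKM at 18 months, and was not called. Spn and Itgal, at 4.10 ± 1.68 and 4.04 ± 1.62, were not called either, and Nr4a1, the factor on which these monocytes depend, was at 0.06 ± 0.30. By DESeq2 it was 4 of the 10, beside 17% of all its genes. In edgeR 8 of the 10 were called higher when 2-month replicate 2 was left out. The edgeR shares were 10% beside 14.9% of all tested genes with all libraries, and 80% beside 23.3% without that library.

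Resident macrophage genes were taken from a separate list. Of 20 such genes beyond the markers described above, 7 were called higher and 0 lower, with a median log2 fold change of 2.91, and 15 were called higher without 2-month replicate 2. These are 35% of the list beside 14.9% of all tested genes, and 75% beside 23.3%. DESeq2 called 11 higher, beside 17% of all its genes. With all libraries 15 of the 20 were higher without overlap and 1 lower, beside 33.9% and 34.6% of all tested genes. The ages overlapped for Folr2, Lyve1, Fcrls and Cd209f, named after their values had been seen. Their log2 fold changes were -0.69 ± 0.53, 0.97 ± 0.51, 0.96 ± 0.64 and 1.24 ± 1.62, and none was called. The complement gene C1qb rose by 3.43 ± 0.80 on the log2 scale, from 1.53, 16.9 and 7.38 to 93.9, 97.8 and 93.9 FPKM (adjusted p 0.0154, edgeR's test). Fcgr3, an antibody receptor shared with neutrophils and natural killer cells, rose by 4.25 ± 1.31 on the log2 scale (adjusted p 0.0389, edgeR's test). Mpeg1, the pore-forming protein of phagocytes, was at 3.76 ± 1.58 and not called. The lysosomal proteases Ctsb and Lgmn, which many cell types make, had log2 fold changes of 0.82 ± 0.19 and -0.76 ± 0.11, short of the fold change needed for a call.

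Of 11 genes of marrow island and iron recycling macrophages and the red cell precursors around them, 5 were called higher and 0 lower, with a median log2 fold change of 2.68, and 9 were called higher without 2-month replicate 2, with a median of 4.19. The shares called higher were 45.5% beside 14.9% of all tested genes, and 81.8% beside 23.3%. Hmox1, which breaks down heme, rose by 2.21 ± 0.29 on the log2 scale (adjusted p 0.00275, edgeR's test), and Il1r2, a decoy receptor also abundant in neutrophils, by 5.57 ± 1.46 (adjusted p 0.0231, edgeR's test). Vcam1, an adhesion molecule of the macrophages of marrow islands, was at 3.64 ± 1.45 and Klf1, a factor of the red cell precursors themselves, at 4.11 ± 1.45, and neither was called. The widely expressed integrin Itgb1 was at -0.48 ± 0.12. The other genes called, named after their values had been seen, were the iron exporter Slc40a1, the nuclease Dnase2a and the prostaglandin receptor Ptger4.

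The genes of apoptotic cell uptake, to which Mertk belongs, went both ways. Of 16, 5 were called higher and 5 lower, with a median log2 fold change of 0.02. The 5 higher genes were 31.2% of the list. Among all tested genes 14.9% were called higher and 21.3% lower. Gas6, a ligand of Mertk and Axl, rose by 1.39 ± 0.39 on the log2 scale, from 9.97, 32.3 and 17.9 to 47.6, 57.8 and 58.1 FPKM (adjusted p 0.0295, edgeR's test). The other ligand, Pros1, was at -0.40 ± 0.09 and was not called. The ratio of Mertk to Axl was 1.33, 1.03 and 1.31 at 2 months and 0.243, 0.311 and 0.313 at 18 months, without overlap. Mfge8, a bridging protein that chondrocytes also make, fell by 5.39 on the log2 scale (adjusted p 0.00123, edgeR's test), from 320, 286 and 341 to 13.2, 4.81 and 5.99 FPKM. Lrp1, an endocytic receptor of many cell types, fell by 2.59 and Colec12, a scavenger receptor, by 2.43 on the log2 scale. The others, named after their values had been seen, were Axl, Stab2, Cd36 and Elmo1 among the higher genes and Tyro3 and Itgav among the lower ones.

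Other leukocyte markers are given beside these values. Of 14 neutrophil markers 0 were called higher with all libraries and 14 without 2-month replicate 2, with median log2 fold changes of 5.00 and 10.2. Of all tested genes, 14.9% and 23.3% were called higher in these fits. Since these markers singled that library out, the calls without it are no independent evidence. With all libraries 3 of the 14 had an unadjusted p below 0.05 in edgeR, and DESeq2 called 11 higher, beside 17% of all its genes. Of 10 dendritic cell markers 1 was called higher (Xcr1) and 1 lower (Batf3), both named after their values had been seen, and of 6 pan-leukocyte genes 1 was called higher (Laptm5), while without 2-month replicate 2 it was 8 and 6 higher. DESeq2 called 2 of the dendritic cell markers and 6 of the pan-leukocyte genes higher with all libraries. Thus, with all libraries, markers of several blood cell types shared the wide spread of the monocyte and macrophage genes over the 2-month libraries, and their part in the differences between the ages was not tested.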

How the data were processed

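Messenger RNA of WT articular cartilage was measured in 3 libraries per age. The authors deposited raw counts per gene and FPKM values per gene, which they scaled by transcript length and library total. The submitters' processing notes name cutadapt 1.9, HISAT2 2.0.4, UMI-tools, StringTie 1.3.4d, DESeq2 and edgeR. How the counting treated strand and molecular identifiers is not given in the sources used here. Columns named Young and Aged with a number were matched to the sample titles, and 0 columns of values were left out. Positions follow GRCm38, since 29627 of the 33971 genes had identical coordinates in GENCODE M21.

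The members and lists were chosen with earlier results of these data known. The named genes were the 10 members, the genes around CSF1R (1 of which is not reported here), the 5 genes with the highest mean FPKM of each other list that is described gene by gene, the copies Lyz1 and Ly6c1, Ptprc, Xist, Ddx3y and the 3 nearest patterns of Csf1r and Ly6c2 among genes averaging 1 FPKM or more. The counts of all genes entered edgeR 4.0.16 under R 4.3.3 (TMM, filterByExpr, glmQLFTest, age only) on all 6 libraries, with Benjamini-Hochberg adjustment over the 20397 genes tested. Each SE was the size of the log2 fold change over the root of its F statistic. The scripts were tested on simulated data. FPKM ratios used a pseudocount of 0.1 where stated and exact permutation tests in scipy 1.17.1. Depth was 48171507 to 59085179 counts, and intervals on shares are 95% Wilson intervals. Replicates of an age differed by more than sampling noise and were kept apart. Alternatives were other scalings, no filter, DESeq2 1.42.0, limma 3.58.1 on log2 FPKM or TPM, a replicate block, glmTreat and leaving out each library.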

Additional observations from a re-analysis of the deposited data

How the results depend on the processing

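With all libraries and the main settings 1 of the 10 members was called (Lyz2). The number called was 2 with median-of-ratios (RLE) size factors (Lyz2 and Mrc1), 3 with DESeq2, 4, 5 and 3 with limma on log2(FPKM + 0.1), log2(FPKM + 1) and log2(TPM + 0.1), and 0 with scaling by total counts alone, without a filter, with glmTreat against a fold change of 2 and with 18-month replicates 2 and 3 summed. Leaving out 1 library gave 0 to 7 members, the 7 coming when 2-month replicate 2 was dropped, while dropping 2-month replicate 1 gave 3 and any one of the others 0. The wider lists had 88 calls with DESeq2, 109, 103 and 100 with the limma fits, 30 with glmTreat and 35 to 120 when 1 library was left out, beside 51 in the main fit. Over all genes glmTreat called 4033, beside 7401. Calls higher at 18 months were 41.2% of all calls, 57.8% with limma on log2(FPKM + 1) and 52.2% without 2-month replicate 2, and TPM moved the median of all genes to -0.33. The same-numbered libraries did not deviate together (correlations of 0.03, 0.04 and -0.02). With a replicate block 1 member was called, Mrc1 (log2 fold change 4.20, adjusted p 0.0456, edgeR), and Lyz2 had an adjusted p of 0.0615. In log2 fold change the sign of all 9 tested members was the same in every fit. The difference of Adgre1 relative to Ptprc turned from -0.45 to 0.055 with a pseudocount of 0.01 and 1.05 with Laptm5 in place of Ptprc, and ran from -0.735 without 2-month replicate 1 to 0.067 without 2-month replicate 3. That of Mrc1 turned to 0.36 with Laptm5. With Laptm5 the differences of Csf1r, Cd68 and Cd163 shrank to -0.607, -1.24 and -1.13. With Cd53 in place of Ptprc they were -2.77, -3.40 and -3.29. The causes were not tested. Low counts limit Marco and Vsig4, and sex, age and the tissue's blood cell content cannot be told apart.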
